A study of Sus scrofa with 8 samples.

Results

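The EGR, NR4A and other immediate early genes were followed in skin of Yorkshire swine, 3 h after an intradermal injection of the cytokine IL-15. Of the 10 genes asked for (EGR1, EGR2, EGR3, NR4A1, NR4A2, NR4A3, IER2, IER3, ZFP36 and BTG2), 8 carried their symbol in the deposited table of 31907 genes. These 8 are the named members below. IER2 stood there without a symbol and was matched by its Ensembl ID in a table of gene names. BTG2 had no row under its name or listed ID, and the row whose exons cover its RefSeq position is described separately.

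Wild-type animals called pig 13 and pig 14 each gave 2 injected and 2 control biopsies. The 4 injected sites (12c and 12e of pig 13, 12c and 12d of pig 14) had each received IL-15 (200 ng, given in saline at 100 µl), and the 4 control sites (6b and 7b of pig 13, 6b and 7e of pig 14) had no injection. No site received saline alone, and injected and control sites came from differently numbered positions, so the cytokine, the needle and the position cannot be told apart. Biopsies of 1 animal are not separate animals, and p-values measure the spread between sites of these 2 pigs. RNA came from the whole biopsy, so a higher level per cell and more cells of a type cannot be told apart.

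Immediate early genes are transcribed within minutes of a stimulus without new protein synthesis, mostly through ERK kinases, serum response factor and CREB, and their transcripts are short-lived. In skin they answer growth factors, cytokines, ultraviolet light and wounding. EGR1, EGR2 and EGR3 encode zinc finger transcription factors, and NR4A1, NR4A2 and NR4A3 encode orphan nuclear receptors. IER2 is a nuclear protein. IER3 modulates survival signalling, ZFP36 (tristetraprolin) binds AU-rich elements of cytokine transcripts and recruits the CCR4-NOT deadenylase, and BTG2 is an antiproliferative partner of the same deadenylase. The design text names the aim as finding strongly induced genes for a topical JAK1/3 inhibitor.

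Libraries held between 28471089 and 36070107 counts. Skin identity was plain, with every marker of basal and differentiated keratinocytes and of fibroblasts (8, 10 and 8 genes) at or above 1 CPM (counts scaled to library size) in at least 1 biopsy. The pig 13 control from site 7b stood apart. The other controls had summed fibroblast markers of 77365 to 192984 CPM, and 7b had 19697. Differentiated keratinocyte markers reached 22546 CPM in 7b against 8107 to 11946, and neutrophil markers 411.4 against 57.73 to 102.5. Member differences are given with and without this biopsy where leaving it out moved them by over 1.5 times or changed a call. Between the groups, with both pigs pooled, the summed levels overlapped for all 13 marker lists. Within a pig some did not. In pig 13 fibroblast, smooth muscle and pericyte, skeletal muscle and adipocyte sums were higher at both injected sites than at both controls. In pig 14 basal keratinocyte sums were higher, and neutrophil sums lower, at both injected sites than at both controls. No list was separated in both pigs.

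At control sites all 8 named members were expressed. EGR1 and ZFP36 had the largest differences relative to their error, with fitted levels 1.61-fold and 1.47-fold higher at injected sites. With both pigs pooled, EGR2, EGR3, NR4A1, NR4A2 and NR4A3 had group means closer than the SD of either group. These SDs include the difference between the pigs, and within each pig NR4A1 had both injected sites above both controls. The IER3 means were closer than the SD of its controls. edgeR's quasi-likelihood test with pig as a block called 0 of the 8 higher at a Benjamini-Hochberg adjusted p under 0.05, where 0.0352% of the 19862 genes tested were called higher. It called 0 lower, as for 0% of all genes. At an unadjusted p under 0.05, 2 of the 8 were higher (EGR1 and ZFP36) and 0 lower, where 2.39% of all genes were higher and 2.15% lower. DESeq2 called 1 higher (EGR1) and 0 lower, with 0.257% of its 18706 genes called higher and 0.0535% lower, and limma voom called 0. Of the 8, 7 had a log2 fold change above 0 (87.5%, against 48.2% of all genes), and their median was 0.33 beside -0.008 over all genes tested. Without the control 7b this median was 0.51 beside -0.003.

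**Figure D1:**
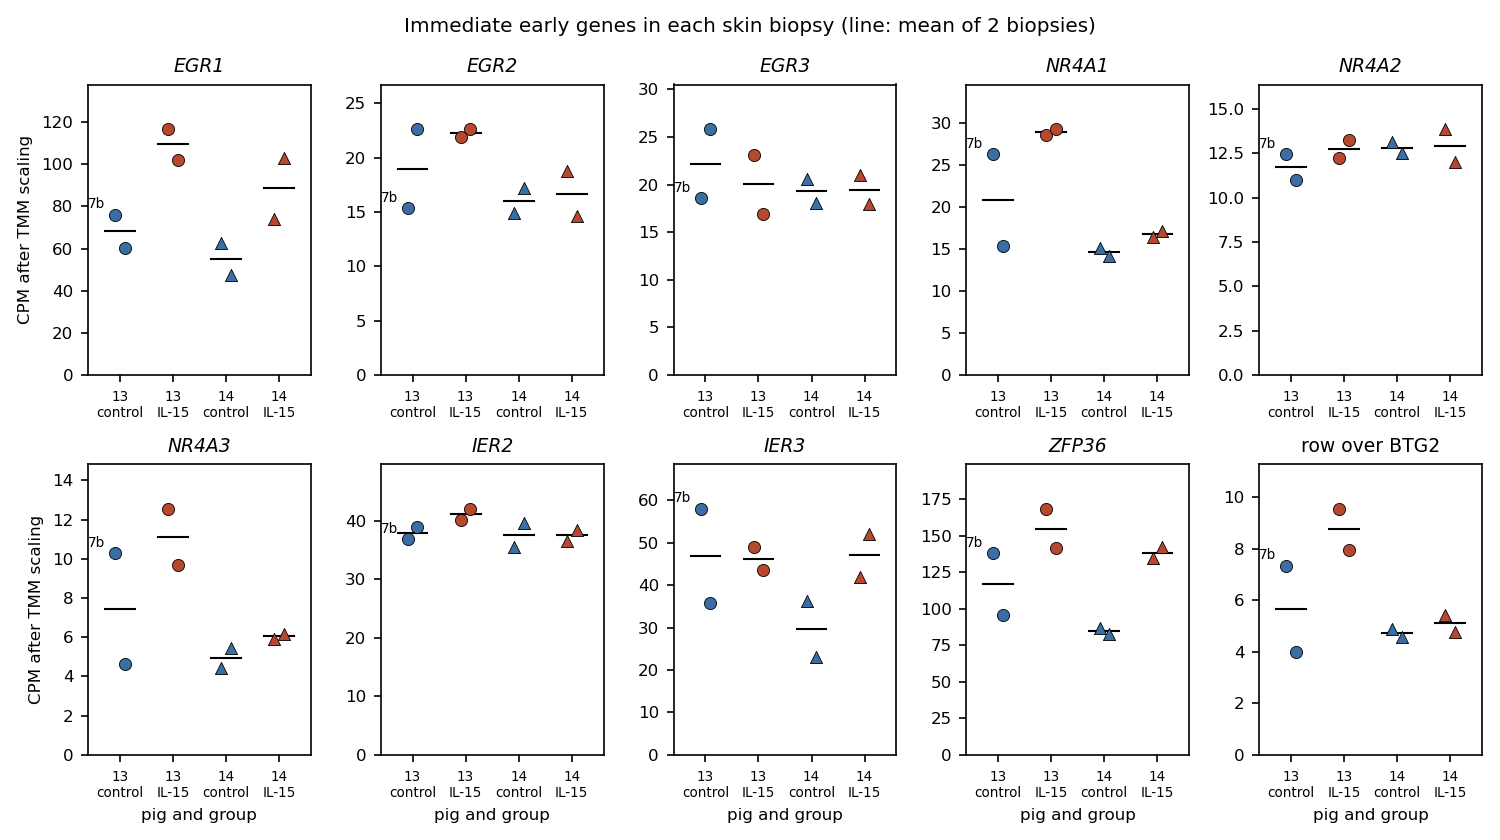
Level of each gene in each biopsy, in CPM after TMM scaling (vertical axes from 0), by pig and group (horizontal axes), with circles for pig 13, triangles for pig 14, blue for control, red for IL-15 and a line at the mean of 2 biopsies. EGR1, NR4A1 and ZFP36 have both injected biopsies above both controls in each pig, and the control from site 7b is marked.

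EGR1 (ENSSSCG00000014336, chromosome 2, 140441421 to 140445296 of Sscrofa11.1, plus strand) was at 116.8 and 102.2 CPM in the injected sites 12e and 12c of pig 13. The controls 7b and 6b of that pig had 76.13 and 60.30 CPM. In pig 14 the injected sites 12c and 12d had 103.1 and 74.24 CPM, and the controls 7e and 6b had 62.84 and 47.49 CPM. Every injected biopsy was thus above both controls of its own pig, though site 12d of pig 14 lay just under the control 7b of pig 13. These values rest on 1244 to 3851 counts per biopsy. The means were 99.1 ± 17.9 and 61.7 ± 11.7 CPM (SD, n = 4), a 1.61-fold difference.

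EGR1 had the smallest p of the 10 genes, at rank 23 of all genes tested. Its log2 fold change was 0.68 ± 0.14 (SE, 95% confidence interval 0.38 to 0.98, adjusted p = 0.394 by edgeR). DESeq2 called it, with 0.68 ± 0.16 (adjusted p = 0.0118). The DESeq2 call ended when 1 of 3 biopsies was left out, namely the injected sites 12c of pig 14 (adjusted p = 0.075) or 12e of pig 13 (adjusted p = 0.215), or the control 6b of pig 14 (adjusted p = 0.117). Without the control 7b the log2 fold change was 0.75 ± 0.14 (adjusted p = 0.174 by edgeR and 0.00145 by DESeq2).

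EGR2 and EGR3, the nearest relatives of EGR1 in this set, showed no such separation. EGR2 (ENSSSCG00000010224, chromosome 14, 66284577 to 66291306) is known from myelination and T cell tolerance. It was at 21.85 and 22.63 CPM in injected and 15.38 and 22.58 in control sites of pig 13, and at 18.72 and 14.60 in injected and 14.87 and 17.22 in control sites of pig 14. Injected and control values overlapped in both animals. The log2 fold change of EGR2 was 0.14 ± 0.14 with an interval of -0.17 to 0.46. It was 0.02 ± 0.12 without the control 7b and 0.24 ± 0.15 without the control 6b of pig 13.

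EGR3 (ENSSSCG00000009630, chromosome 14, 6945936 to 6948684) was highest in a control, the site 6b of pig 13, at 25.84 CPM, against 18.55 in the control 7b. The injected sites of pig 13 had 23.13 and 16.96 CPM. In pig 14 the injected sites had 21.03 and 17.91 CPM and the controls 20.59 and 18.02, nearly the same pair of values. The log2 fold change of EGR3 was -0.07 ± 0.14 (interval -0.39 to 0.25), with -0.15 ± 0.21 in pig 13 and 0.01 ± 0.21 in pig 14. Without 7b it was -0.14 ± 0.14, and without the control 6b of pig 13 it was 0.05 ± 0.14. Among the 3 genes, EGR1 made up 54.2% to 66.4% of the summed level per length in injected and 44.0% to 58.4% in control biopsies, where the ranges overlapped.

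The NR4A genes encode receptors whose activity follows their amount rather than a ligand. NR4A1 (ENSSSCG00000031321, chromosome 5, 17385390 to 17408514) was at 28.59 and 29.27 CPM in the injected sites of pig 13, against 26.22 in the control 7b and 15.38 in the control 6b. In pig 14 it was at 16.36 and 17.14 CPM in injected and 15.15 and 14.20 CPM in control sites. Injected values were above control values within each animal, but the gap in pig 14 was narrow and in pig 13 the control 7b lay close under both injected sites. NR4A1 had a log2 fold change of 0.34 ± 0.16 (interval -0.01 to 0.68, adjusted p = 0.964 by edgeR). Which pig 13 control was kept moved it, to 0.48 ± 0.15 without 7b and to 0.17 ± 0.10 without 6b.

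NR4A3 (ENSSSCG00000005385, chromosome 1, 241569905 to 241611734) had the fewest counts of the 8, with 126 to 382 per biopsy. It was at 12.55 and 9.66 CPM in the injected sites of pig 13, with 10.30 in the control 7b and 4.63 in the control 6b. In pig 14 the injected sites had 5.92 and 6.18 CPM and the controls 4.45 and 5.46. The control 7b was 2.23 times the control 6b and fell between the injected values. The log2 fold change of NR4A3 was 0.43 ± 0.23, and 0.67 ± 0.23 without 7b (adjusted p = 0.964 and 0.753 by edgeR). Without the control 6b of pig 13 it was 0.21 ± 0.16.

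NR4A2 (ENSSSCG00000015871, chromosome 15, 63487698 to 63505244) varied little. Its lowest and highest values over the 8 biopsies were 11.00 and 13.87 CPM, and the group means were 12.8 ± 0.87 CPM with and 12.3 ± 0.89 CPM without IL-15 (SD, n = 4). Its log2 fold change was 0.07 ± 0.11, with an interval from -0.18 to 0.31, and 0.02 to 0.12 with each biopsy left out.

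**Figure D2:**
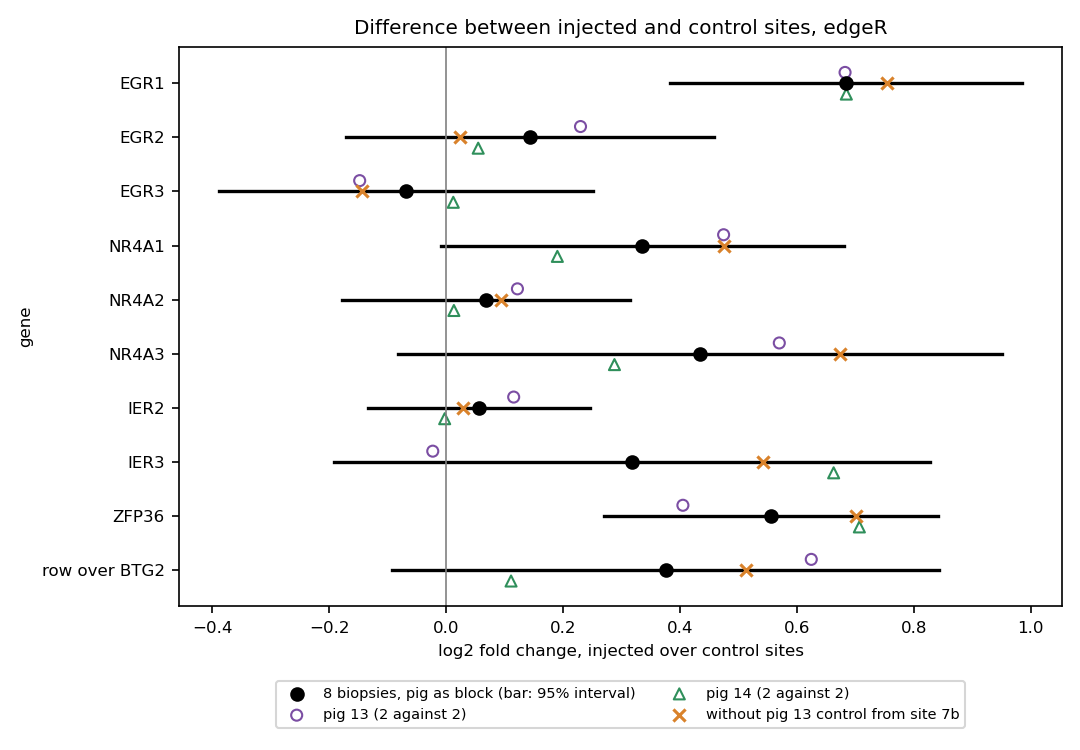
Log2 fold change of injected over control sites for each gene in edgeR (horizontal axis), with the fit of 8 biopsies and its 95% interval, the value within each pig (2 biopsies against 2) and the fit without the control 7b. EGR1 has the same value in both pigs, 0.68, and IER3 has -0.02 in pig 13 and 0.66 in pig 14, a difference that was not called.

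ZFP36 (ENSSSCG00000028056, chromosome 6, 48052137 to 48066257) had the highest CPM of the set. It was at 168.6 and 141.4 CPM in the injected sites of pig 13, against 138.1 in the control 7b and 96.0 in the control 6b. In pig 14 the injected sites 12d and 12c had 134.6 and 142.5 CPM and the controls 7e and 6b 87.25 and 82.54. The pig 14 groups were far apart, and the control 7b was the single control near the injected level. Group means were 146.8 ± 14.98 and 101 ± 25.4 CPM (SD, n = 4).

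The log2 fold change of ZFP36 was 0.56 ± 0.13 (interval 0.27 to 0.84, adjusted p = 0.667 by edgeR and 0.0692 by DESeq2). Without the control 7b it was 0.70 ± 0.10 and edgeR called it (adjusted p = 0.0355), the 1 call among the 8 members in that fit, which left pig 13 with the control 6b alone. There 0.094% of 20223 genes were called higher. With the control 6b of pig 13 left out instead, ZFP36 had 0.48 ± 0.13. DESeq2 called ZFP36 without 7b (adjusted p = 4.88e-06) and without the injected site 12c of pig 13 (adjusted p = 0.0375).

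Counting of ZFP36 also took in bases outside the RefSeq gene. Of its 2962 counted exon bases 1691 lay inside RefSeq ZFP36, and 627 were shared with exons of other counted genes, 586 of them with PAF1 on the opposite strand. PAF1, a subunit of an RNA polymerase II elongation complex, had a log2 fold change of 0.13 ± 0.09 (adjusted p = 0.964 by edgeR). NR4A1 had 885 of 2682 exon bases outside the span that RefSeq lists for NR4A1, and RefSeq labels that locus a pseudogene. How such bases contributed to the counts was not tested.

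IER3 (ENSSSCG00000027607, chromosome 7, 23265562 to 23267042) had unlike values in the 2 animals, a difference that was not called. In pig 14 the injected sites 12c and 12d had 51.97 and 41.97 CPM, above the controls 7e and 6b at 36.31 and 22.98. In pig 13 the injected sites had 48.87 and 43.44 CPM, and the control 7b, at 57.96 CPM, was the highest of all 8 biopsies, with 35.76 in the control 6b. The log2 difference was -0.02 ± 0.28 in pig 13 and 0.66 ± 0.28 in pig 14, and 0.32 ± 0.22 over both. It was 0.54 ± 0.16 without the control 7b (adjusted p = 0.702 by edgeR) and 0.13 ± 0.18 without the control 6b of pig 14.

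IER2 (ENSSSCG00000013753, chromosome 2, 65909646 to 65911423) was annotated as a long noncoding RNA in the deposited table, although its exons lie within protein-coding RefSeq IER2. It was the steadiest gene beside NR4A2, between 36.57 and 42.03 CPM where IL-15 had been given and between 35.50 and 39.67 CPM where it had not. The ranges overlapped, and the log2 fold change was 0.06 ± 0.09 (interval -0.13 to 0.25), and 0.03 (without 7b) to 0.10 with each biopsy left out.

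The row placed over BTG2 (ENSSSCG00000028322, chromosome 9, 64031854 to 64037769) has no symbol in the table and is annotated as a long noncoding RNA. RefSeq puts BTG2 at 64033853 to 64037795, and 2651 of the row's 3212 exon bases fall inside. Of these exon bases 2418 are shared with a noncoding gene on the opposite strand that held at most 2 counts in any biopsy, and the strand setting of the counting is not known here. The level of the BTG2 transcript cannot be read from this row with certainty. The row had 9.56 and 7.96 CPM in injected and 7.35 and 3.99 in control sites of pig 13, and 5.43 and 4.78 in injected and 4.88 and 4.58 in control sites of pig 14. Its log2 fold change was 0.38 ± 0.21 (adjusted p = 0.964 by edgeR), 0.51 ± 0.23 without 7b and 0.17 ± 0.15 without the control 6b of pig 13.

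Every injected biopsy was above every control of its own pig for EGR1, NR4A1 and ZFP36, that is 3 of the 8 named members. Of all genes tested 3.11% had this property. In pig 14 alone it held for 5 of the 8, with NR4A3 and IER3 beside those 3, against 20.5% of all genes, and in pig 13 alone for 3 of the 8, against 18.2%. The control 7b exceeded all other controls for 5 of the 8 (EGR1, NR4A1, NR4A3, IER3 and ZFP36) and was below the control 6b for EGR2 and EGR3. The share of all genes highest in 7b among the controls was not determined, so this count is not read as particular to these genes. The control 7b was also the biopsy with the highest neutrophil and keratinocyte and the lowest fibroblast marker sums, and the part of these cells in its values was not tested.

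A response that differed between the animals was not detected. The interaction of pig and treatment was called by edgeR for 0 of the 8 (0% of all genes), with a smallest unadjusted p of 0.121, for IER3. DESeq2 also called 0 of the 8, where it called 0.512% of its 16781 genes. The difference of the IER3 response, pig 14 minus pig 13, was 0.69 ± 0.39.

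Between the animals at equal treatment, NR4A1 was lower in pig 14 than in pig 13, by a log2 difference of -0.65 ± 0.16 (adjusted p = 0.0256 by edgeR). It was the 1 called member of 8, where 10.7% of all genes were called in either direction. DESeq2 called NR4A1 and NR4A3 (adjusted p = 0.00337 and 0.0233), beside 15.8% of all genes. NR4A3 had -0.74 ± 0.23 (adjusted p = 0.0714 by edgeR) and NR4A2 0.07 ± 0.11. The edgeR call of NR4A1 ended without any 1 of 7 biopsies, with adjusted p between 0.0515 and 0.0858, and held without the pig 13 control 6b (-0.81 ± 0.09, adjusted p = 0.00185). EGR1, EGR2, ZFP36 and IER3 had differences of -0.31, -0.33, -0.31 and -0.32 in the same direction, none of them called by edgeR. Other calls came with 1 biopsy left out, of NR4A3 and the row over BTG2 without the pig 13 control 6b (adjusted p = 0.0081 and 0.0202 by edgeR) and of EGR2 without 7b (adjusted p = 0.0431 by edgeR).

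**Figure D3:**
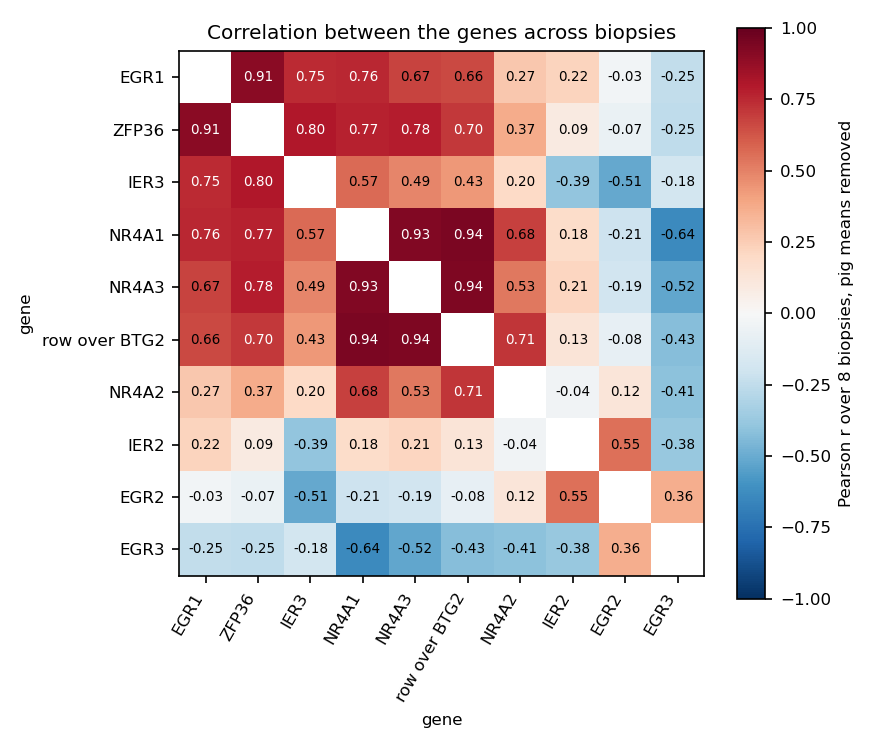
Pearson correlation of log2 CPM between each pair of genes over 8 biopsies after each pig's mean was removed (rows and columns are genes, colour from -1 to 1). EGR1, ZFP36, NR4A1, NR4A3 and the row over BTG2 form a block with pairs from 0.66 to 0.94. IER3 has 0.75 with EGR1 and 0.80 with ZFP36 but 0.43 with the row over BTG2, and NR4A2 has 0.71 with that row. EGR3 has negative values with every gene except EGR2.

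Levels of the genes varied together in part. With pig means removed, EGR1 and ZFP36 correlated at r = 0.91 over 8 biopsies, NR4A1 and NR4A3 at 0.93, and the row over BTG2 with NR4A1 and NR4A3 at 0.94 each. EGR1 with EGR2 gave -0.03, EGR1 with EGR3 -0.25 and NR4A1 with EGR3 -0.64. The points share libraries, 2 animals and the treatment contrast, so these values describe the 8 biopsies. Outside the set, the genes whose pattern was nearest to EGR1 were CSF3 (r = 0.98), STAT6 (0.97), STARD7 (0.97), GALNT17 (0.97) and EIF4G1 (0.96), and edgeR called none of them between the groups (adjusted p = 0.85 to 0.964).

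Per kilobase of counted exons, where levels can be set against each other, ZFP36 was highest at 41.8 ± 10.5 CPM per kilobase (SD over 8 biopsies). IER3 followed at 30.6 ± 7.89, EGR1 at 25.9 ± 7.86 and IER2 at 24.4 ± 1.35, and these neighbours lay within their spread. EGR3 had 13.3 ± 2.00, NR4A1 7.57 ± 2.43, EGR2 6.33 ± 1.19 and NR4A2 4.01 ± 0.28 CPM per kilobase, with NR4A1 and EGR2 inside each other's spread. The row over BTG2 had 1.89 ± 0.62 and NR4A3, the lowest, 1.27 ± 0.52. The order of ZFP36 and NR4A1 depends on exon models that reach beyond the RefSeq genes.

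**Figure D4:**
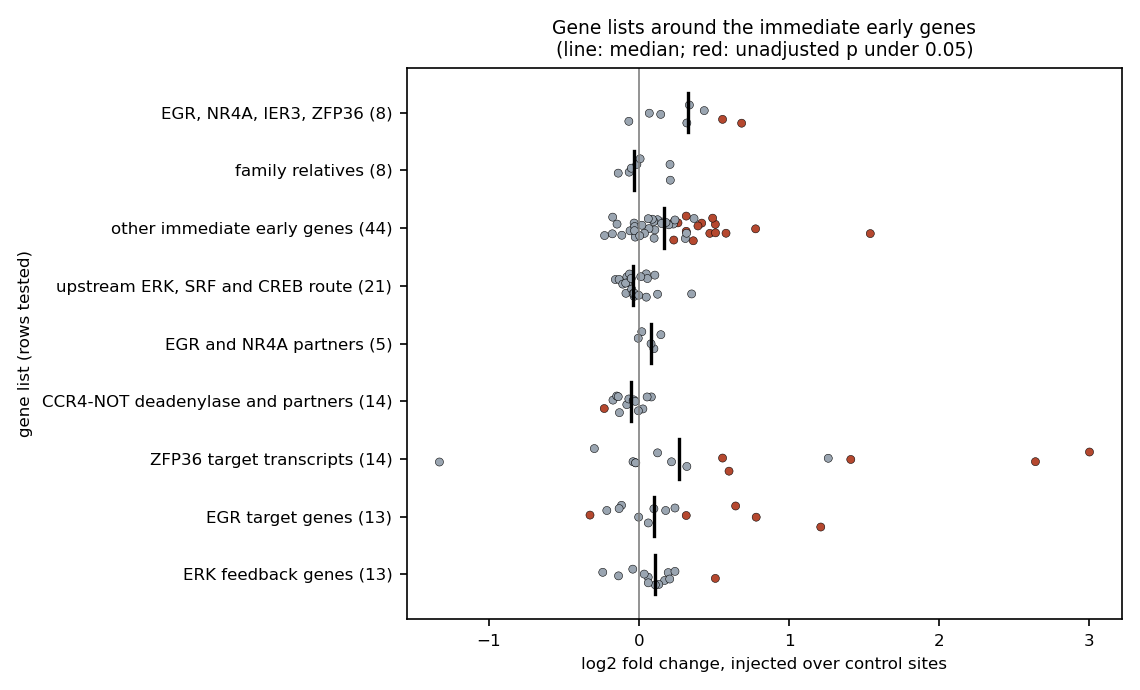
Log2 fold change of injected over control sites in edgeR (horizontal axis) for each tested gene row of the lists (vertical axis, with the number tested), with a line at the median and red points at an unadjusted p under 0.05. The 44 rows of other immediate early genes have 15 red points, all above 0, and the upstream and deadenylase lists centre near 0.

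Further immediate early genes also lay mostly above 0. This list, like those below, was chosen with earlier results of these data known, so its shares are descriptive. The lists share genes, such as GADD45B with the EGR targets and DUSP5 with the ERK feedback genes. Of 44 rows tested (PHLDA1 is on 2), edgeR called 0 in either direction, 15 were higher and 0 lower at an unadjusted p under 0.05 (2.39% and 2.15% of all genes), and 34 lay above 0 (77.3%, against 48.2% of all genes), with a median of 0.17. DESeq2 called 2, the AP-1 subunit FOSB and the ERK phosphatase DUSP5. FOSB was at 14.43 and 8.84 CPM in injected sites of pig 13 and at 17.40 and 11.07 in those of pig 14, and its controls, at 2.81 to 5.65 CPM, did not overlap with them (log2 fold change 1.54 ± 0.25, adjusted p = 0.207 by edgeR and 8.1e-06 by DESeq2). DUSP5 had 0.51 ± 0.11 (adjusted p = 0.543 by edgeR and 0.0371 by DESeq2). Without the control 7b edgeR called FOSB (1.78 ± 0.23, adjusted p = 0.0295) and FOS (1.19 ± 0.16, adjusted p = 0.0263), the latter chosen after its values were seen. With 7b kept, FOS had 0.78 ± 0.29 and was not called (adjusted p = 0.964 by edgeR and 0.361 by DESeq2). FOS was at 34.01 CPM in 7b and 11.03 to 11.82 in the other controls. Injected sites had 37.92 and 33.36 CPM of FOS in pig 13 and 19.51 and 22.43 in pig 14. The control 7b thus lay at the injected level of its own pig.

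Family relatives of the members were tested in the same fit. None of 8 tested was called by edgeR or DESeq2 or had an unadjusted p under 0.05, and their median was -0.03. IER5 had 0.21 ± 0.11 and ZFP36L2, a paralog of ZFP36, 0.21 ± 0.13. The upstream kinases and factors of the ERK, SRF and CREB route had 0 of 21 called by both tools and 0 at an unadjusted p under 0.05, with a median of -0.04 and a value of -0.16 ± 0.11 for RPS6KA5. Of 13 rows of ERK feedback genes edgeR called 0, DESeq2 called DUSP5, and 1 was higher at an unadjusted p under 0.05 (median 0.11, and 0.17 without 7b), and SPRY1, an inhibitor of ERK signalling, had 0.17 ± 0.08.

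Partners of the encoded proteins had small differences. The EGR corepressor NAB2, itself an EGR target, had 0.10 ± 0.10, and RXRA, a receptor that pairs with NR4A1, had 0.08 ± 0.10. None of the 5 partners tested was called by either tool or had an unadjusted p under 0.05. Of 14 genes of the CCR4-NOT deadenylase and its partners edgeR and DESeq2 called 0, and 1 was lower at an unadjusted p under 0.05, CNOT8 (-0.23 ± 0.10), beside CNOT6 (-0.17 ± 0.10), with a median of -0.05.

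Transcripts known as ZFP36 targets were spread widely, with a median of 0.27 over 14 tested (0.60 without 7b), 2 of which (ZFP36 and IER3) are members. edgeR called 0 and DESeq2 called 3 cytokines (TNF, IL6 and CCL2), and 5 were higher and 0 lower at an unadjusted p under 0.05, against the same 2.39% and 2.15% of all genes. TNF had the smallest p, with 6.40 and 4.45 CPM in injected and 2.33 and 2.10 in control sites of pig 14, and 3.62 and 2.07 in injected and 1.04 and 0.91 in control sites of pig 13 (log2 fold change 1.41 ± 0.24, adjusted p = 0.2 by edgeR). IL6, called by edgeR without 7b (adjusted p = 0.00588) beside ZFP36, was at 3.22 CPM in 7b, 0.21 to 0.57 CPM in the other controls and 4.30 to 14.56 CPM in injected sites.

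Of 13 rows of EGR target genes edgeR called 0 and DESeq2 called 2, ICAM1 among them, with a median of 0.10 (0.22 without 7b). ICAM1, a leukocyte adhesion molecule, had 1.21 ± 0.27 (adjusted p = 0.77 by edgeR). It was called by edgeR without 7b (adjusted p = 0.0206). At an unadjusted p under 0.05, 4 EGR target genes were higher and 1 lower, again against 2.39% and 2.15% of all genes.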

How the data were processed

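Per the submitters' processing notes, reads were demultiplexed with bcl2fastq, aligned with STAR 2.5.1a to Sscrofa11.1 and counted with featureCounts 1.4.6-p5 of Subread. The authors deposited whole-number counts per Ensembl gene for all 8 biopsies, and per the file headers each biopsy's own file adds CPM and RPKM. The deposited CPM and RPKM matched the counts and lengths and were used for that check only, and exon models came from these files. The pig 13 control 7b file held 607 genes, so its counts came from the series table. Repeated rows of 425 genes were kept once.

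Genes passing filterByExpr of edgeR 4.0.16 (minimum count 10) in R 4.3.3 were scaled by TMM and tested across all genes with the robust quasi-likelihood test, with pig and treatment as terms, and with their interaction. Printed CPM are TMM-scaled. DESeq2 1.42.0 and limma 3.58.1 (voom) were alternatives, beside other scalings, filters, no block, single pigs and each biopsy left out. Correlations used log2 of CPM plus 0.5. The pig of each biopsy is in the labels, and deviations from group means correlated at 0.20 to 0.58 within and -0.53 to -0.25 across pigs. Subtracting each group's mean ties the across-pig values to the within-pig ones, so they are no separate evidence of the pairing. The fit was tested on simulated data.

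The members and lists were chosen with earlier results of these data known. Named are all members, the 2 genes with the smallest p of each list, any called gene, and the 5 genes most like the member with the smallest p. Results for 2 genes of these lists are not reported here. RefSeq positions are on Sscrofa11.1.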

Additional observations from a re-analysis of the deposited data

Results flagged for a closer look

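NR4A1 was flagged because its highest control biopsy lay far from the others. The pig 13 control 7b, at 26.22 CPM, was separated from the next control by 0.902 of the range of the 4 controls, above Dixon's critical value for 4 samples. The controls come from 2 animals. Among 20 groups of 4 biopsies examined (10 genes, injected and control), this was 1 flag, and chance flags about 1 in 20 groups.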

How the results depend on the processing

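The count of 0 named members called higher became 1 with DESeq2 and 0 to 1 when each biopsy was left out in edgeR, and 0 lower held in every planned setting. DESeq2 with each biopsy left out, added after seeing the data, gave 0 to 2 (2 without the pig 13 control 7b, with EGR1 and ZFP36). The count of other immediate early genes called was 2 with DESeq2, 0 to 2 with a biopsy left out in edgeR and 1 to 3 with a biopsy left out in DESeq2. The members' median log2 fold change of 0.33 ran from 0.227 to 0.509 with a biopsy left out, highest without 7b, where DESeq2 gave 0.512. Members called between the pigs were 1, with 2 by DESeq2 and 0 to 2 with a biopsy left out. No interaction was called among the 8 in any of 11 settings.

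EGR1, EGR2, NR4A1, NR4A2, NR4A3, IER2, ZFP36 and the row over BTG2 stayed above 0 in all 18 planned settings. IER3 turned to -0.017 in pig 13 alone. EGR3 turned to 0.0213 in pig 14 alone, to 0.0312 without the injected site 12c of pig 13 and to 0.0506 without the control 6b of pig 13 (0.0361 and 0.0551 in DESeq2), with -0.147 to 0.0506 over all biopsies left out. With no replicate block for the pig, the count called stayed 0, the median was 0.323 and EGR1 had 0.683 ± 0.17. Depth limits NR4A3 and the row over BTG2 most, with as few as 126 and 120 counts per biopsy.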

Other observations

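A noncoding gene on the strand opposite to the row over BTG2 (ENSSSCG00000050122, chromosome 9, 64029094 to 64035314), chosen after its values were seen, lies across the start of RefSeq BTG2 and shares no exon base with that row. It was at 4.80 and 6.53 CPM in injected and 4.48 and 2.99 CPM in control sites of pig 13. In pig 14 it was at 3.32 and 3.57 CPM in injected and 1.91 and 2.60 CPM in control sites. Every injected biopsy was above both controls of its pig, as for 3.11% of all genes tested. In pig 13 the control 7b lay close under the injected site 12e. Its log2 fold change was 0.61 ± 0.20 (unadjusted p = 0.0131, adjusted p = 0.964 by edgeR). Of its 1327 exon bases 880 lie inside the RefSeq span of BTG2, and without a stated strand setting its reads and those of BTG2 cannot be told apart.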
